A study of Mus musculus with 2 samples.

Results

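Erythroid cells, the red blood cell lineage, made up 240 of the 13939 barcodes kept from CT26 tumors, 125 of 7163 in the untreated (UT) library and 115 of 6776 in the BUP-Gel library. The cells were selected on their hemoglobin content: a barcode was a member when the UMIs (unique molecular identifiers, 1 per captured transcript) of Hba-a1, Hba-a2, Hbb-bs and Hbb-bt together reached 2000 per 10000 of its UMIs and mitochondrially encoded (mt) genes stayed under 20%. CT26 is a colon carcinoma line that was grown under the skin of male BALB/c mice of 6 to 8 weeks. UT mice carried the tumor without treatment, and BUP mice received BUP-Gel, a hydrogel that releases the local anesthetic bupivacaine, once at 40 mg/kg. Each library pooled the tumors of 3 mice, and live CD45+ and CD45- cells were sorted separately and mixed again, at 4:1 by the labels and at 3:1 by the methods. With 1 library per condition no test between UT and BUP was possible, so the intervals given are 95% limits that cover counting error only and not the difference between mice, and the treatment cannot be told apart from the library.

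Red cells carry oxygen on hemoglobin, a tetramer of alpha and beta globin chains that each hold a heme. Their precursors, the erythroblasts, make globin and heme in bone marrow (and in mice also in spleen), expel the nucleus, and enter blood as reticulocytes that keep making hemoglobin from stored mRNA while mitochondria and ribosomes are removed. CD45, encoded by Ptprc, marks white blood cells and is lost as erythroid cells mature, so late erythroid cells fall in the CD45- sort.

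The adult alpha globin genes lie on chromosome 11 (Hba-a1 at chr11:32233186-32234504 and Hba-a2 at chr11:32246168-32247320, plus strand) and the adult beta globin genes on chromosome 7 (Hbb-bs at chr7:103475730-103482989 and Hbb-bt at chr7:103461727-103465047, minus strand) in GRCm39, the build of the counts. Over the 426 coding bases of the alpha pair and the 441 of the beta pair, each pair differed at 1 base, which is why the copies were summed. The 250 bases before the start of 1 gene of each pair, which the rule used, are shown. The same stretch is shown for Alas2, the erythroid enzyme of the first step of heme synthesis, which the rule did not use. They are RefSeq sequences of GRCm38.p6, at chr11:32283422-32283671 for Hba-a1 (plus strand), chr7:103827929-103828178 for Hbb-bs (minus strand) and chrX:150547167-150547416 for Alas2 (plus strand). Capitals mark matches, on either strand, to AGATAA or TGATAA, forms of the motif of GATA factors, and to CCNCACCC, the motif of Klf1-type factors.
Hba-a1: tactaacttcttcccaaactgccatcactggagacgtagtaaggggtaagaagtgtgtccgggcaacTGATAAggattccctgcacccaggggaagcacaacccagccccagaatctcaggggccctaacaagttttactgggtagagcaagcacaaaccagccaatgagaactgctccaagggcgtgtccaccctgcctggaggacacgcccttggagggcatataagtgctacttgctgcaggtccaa
Hbb-bs: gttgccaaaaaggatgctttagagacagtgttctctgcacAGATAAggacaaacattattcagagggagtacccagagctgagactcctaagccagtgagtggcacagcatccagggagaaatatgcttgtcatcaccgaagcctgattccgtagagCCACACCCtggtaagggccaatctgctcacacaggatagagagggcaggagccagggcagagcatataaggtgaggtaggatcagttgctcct
Alas2: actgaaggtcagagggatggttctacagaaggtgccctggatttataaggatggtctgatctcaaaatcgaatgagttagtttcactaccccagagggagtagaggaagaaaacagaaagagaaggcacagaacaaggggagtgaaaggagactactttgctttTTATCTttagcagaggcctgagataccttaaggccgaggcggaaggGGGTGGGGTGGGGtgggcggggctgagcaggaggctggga
Hba-a1 held TGATAA at 183 to 178 bases before its start. Hbb-bs held AGATAA at 210 to 205 and CCNCACCC at 93 to 86 bases before its start. The Alas2 sequence held AGATAA on the other strand at 86 to 81 bases, and 2 overlapping matches of CCNCACCC on the other strand between 40 and 28 bases, before its start. Of windows not shown, Hba-a2 held TGATAA at 186 to 181 bases before its start. Hbb-bt held CCNCACCC at 107 to 100 bases but neither AGATAA nor TGATAA. Bpgm, a gene listed further on, held 0 matches. Over all 32851 promoter windows of this length, 16.6% held AGATAA or TGATAA and 14.9% held CCNCACCC. Of 14 genes that stood highest over other barcodes, listed further on, 9 had a RefSeq window, of which 2 held AGATAA or TGATAA and 3 held CCNCACCC.

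Hemoglobin set the members apart from most other barcodes. Outside the members, 17 UT and 20 BUP barcodes held 100 or more hemoglobin UMIs per 10000. The highest of these in BUP, at 1209, also held 11065 non-hemoglobin UMIs. In UT the members held 2809 to 8298 hemoglobin UMIs per 10000 UMIs, with a median of 6925, and in BUP 2127 to 8869, with a median of 7934. The lowest 3 members held 2809, 3281 and 3295 per 10000 in UT and 2127, 5648 and 6395 in BUP, and the highest 3 barcodes outside held 1342, 1341 and 1303 in UT and 1209, 971.7 and 971.6 in BUP. The ranges of the libraries overlapped, but 8 of the 125 UT members lay above the BUP median and 10 of the 115 BUP members below the UT median. These hemoglobin levels chose the cells and are given as a description.

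**Figure D1:**
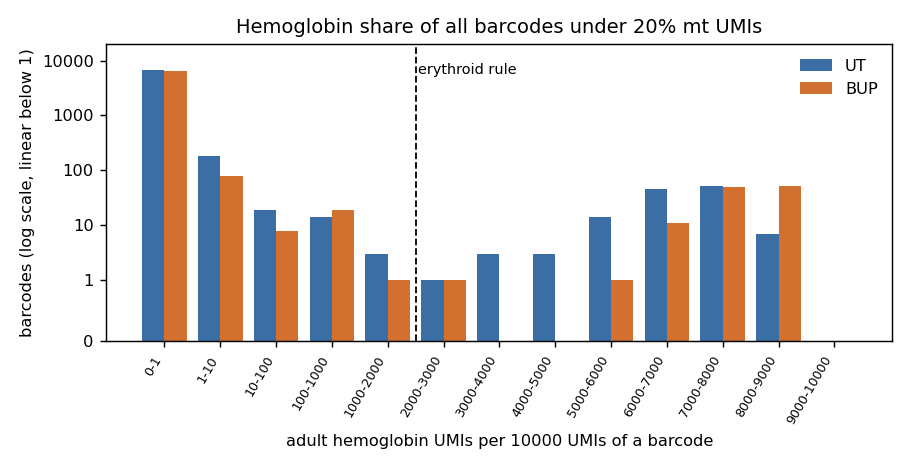
Number of barcodes (log scale, linear below 1) by adult hemoglobin UMIs per 10000 UMIs, for the UT and BUP libraries. The dashed line marks the rule at 2000. In UT 3 barcodes and in BUP 1 barcode held 1000 to 2000, and most members held over 6000.

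The share of erythroid cells among kept barcodes was 1.75% in UT (exact binomial interval 1.46 to 2.08%) and 1.70% in BUP (1.40 to 2.03%), a log2 ratio of BUP over UT of -0.04 (-0.42 to 0.34). Because CD45+ and CD45- cells were mixed at a set ratio, this share follows the mixing as well as the tumor. Among barcodes without a Ptprc UMI, the members were 114 of 1853 in UT (6.15%) and 113 of 2969 in BUP (3.81%), a log2 ratio of -0.69 (-1.08 to -0.30). No member shared its barcode with a barcode of the other library, although 76 barcodes did so overall. Of the barcodes removed for mt content, 1 of 393 in UT and 2 of 445 in BUP also reached the hemoglobin limit.

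The members were small libraries with few genes and little nuclear RNA. Their median was 1043 UMIs and 187 genes in UT and 1132 UMIs and 125 genes in BUP, against 8596 UMIs and 2855 genes, and 10600 UMIs and 3246 genes, in the other barcodes. Without hemoglobin the medians were 301 UMIs in UT and 232 in BUP. Malat1, an RNA kept in the nucleus, was detected in 31.2% of the UT and 22.6% of the BUP members, and in 98.8% and 99.4% of the other barcodes, which were far deeper. Ptprc was detected in 8.80% and 1.74% of members, against 75.3% and 57.1% of other barcodes. The mt share had a median of 0.40% of all UMIs in UT members and 0.219% in BUP members, below the 2.59% and 2.41% of other barcodes. Hemoglobin takes most UMIs of the members and lowers this share. Of non-hemoglobin UMIs the median was 1.35% in UT and 1.01% in BUP members. Summed over members, mt genes were at 324 per 10000 non-hemoglobin UMIs in UT and 457 in BUP. Other barcodes were at 304 and 281, so the sums were not below them. The BUP sum included 1 cell of 4389 non-hemoglobin UMIs with 13.4% mt UMIs. How far the BUP sum rested on that cell was not tested. No barcode of either library held fewer than 501 UMIs, and 16 UT and 9 BUP members held under 600, so erythroid cells of lower content were not seen.

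The cells carried adult hemoglobin in both chains, and the ratio of the chains differed between the libraries. Alpha globin, Hba-a1 and Hba-a2 together, was 51.6% of the hemoglobin UMIs of UT members (51.2 to 51.9%) and 57.4% of those of BUP members (57.1 to 57.7%). This share was not used by the rule, which takes the sum of both chains. Per cell it ran from 39.3 to 58.8% with a median of 51.4% in UT, and from 46.8 to 67.2% with a median of 57.3% in BUP. Only 7 UT members lay above the BUP median and 2 BUP members below the UT median. In members with 1000 or more UMIs, 66 in each library, the medians were 52.1% and 57.3%. The 7849 hemoglobin UMIs of the other UT barcodes were 51.0% alpha (49.9 to 52.1%). The 13871 of the other BUP barcodes were 57.6% alpha (56.8 to 58.4%). They lay in 396 UT and 224 BUP barcodes. How far the hemoglobin-rich barcodes among these set the shares was not tested. Barcodes with C1q macrophage markers were at 48.0% in UT (45.9 to 50.2%), below the UT members. In BUP they were at 58.0% (55.7 to 60.3%). Barcodes with T cell markers were at 57.0% in UT (50.9 to 62.95%) and 56.0% in BUP (44.7 to 66.8%).

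**Figure D2:**
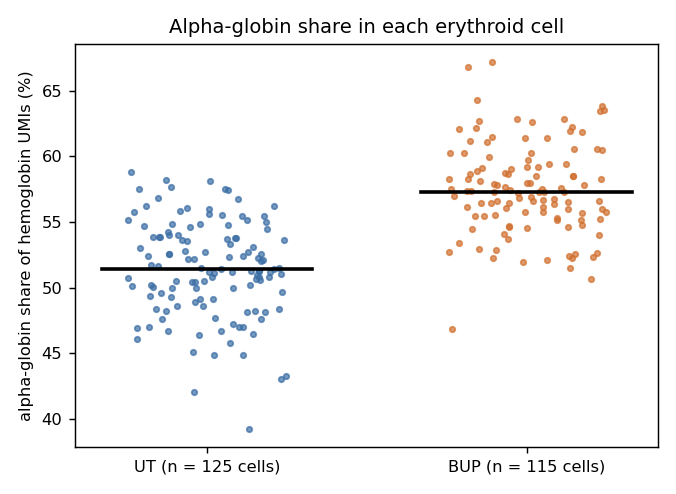
Alpha globin share of hemoglobin UMIs in percent (Hba-a1 and Hba-a2 over all 4 adult globin genes) in each erythroid cell of UT (125 cells) and BUP (115 cells). Black lines are medians, 51.4% and 57.3%, and the spread of points within a library is over cells of 1 library.

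Within each pair, Hba-a1 took 56.6% of alpha UMIs in UT and 56.9% in BUP, and Hbb-bs took 91.3% and 92.1% of beta UMIs. The reference genome is of the C57BL/6J strain and the mice were BALB/c, whose beta globin genes are of another haplotype, so the split between copies is uncertain. Of the embryonic globins, Hbb-y and Hbb-bh1 had 0 UMIs in members of both libraries, while the barcodes outside held 115 and 47 UMIs of them in UT and 10 and 36 in BUP. Hba-x had 1 UMI in UT members and 0 in BUP members. Hbq1b, a minor alpha-like globin, had 10 UMIs in UT and 15 in BUP members.

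Hemoglobin outside the members was low. The other barcodes held 0.951 hemoglobin UMIs per 10000 UMIs in UT and 1.56 in BUP, and 5.63% and 3.36% of them had any. Among barcodes with T cell markers 4.58% in UT and 2.0% in BUP had a hemoglobin UMI, and among those with C1q macrophage markers 5.78% and 5.0% did. Members held 92.4% of all hemoglobin UMIs of the UT library and 89.3% of those of BUP.

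Besides hemoglobin, the members carried the RNAs of a late erythroid cell. Levels of other genes are given per 10000 non-hemoglobin UMIs, summed over the members of a library. Of the 110 genes with at least 100 such UMIs over both libraries, 54 (49.1%) were at least 4-fold higher in members than in other barcodes in both libraries. The genes had to be plentiful in members to be among the 110, so this share describes them and supports nothing. Among those with the highest ratio over other barcodes were Alas2, Bpgm, Tent5c, Fech, Ube2l6, Cdr2, Slc25a37, Mkrn1, Marchf2, Isca1, Ube2o, Bnip3l, Epb41 and Isg20.

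**Figure D3:**
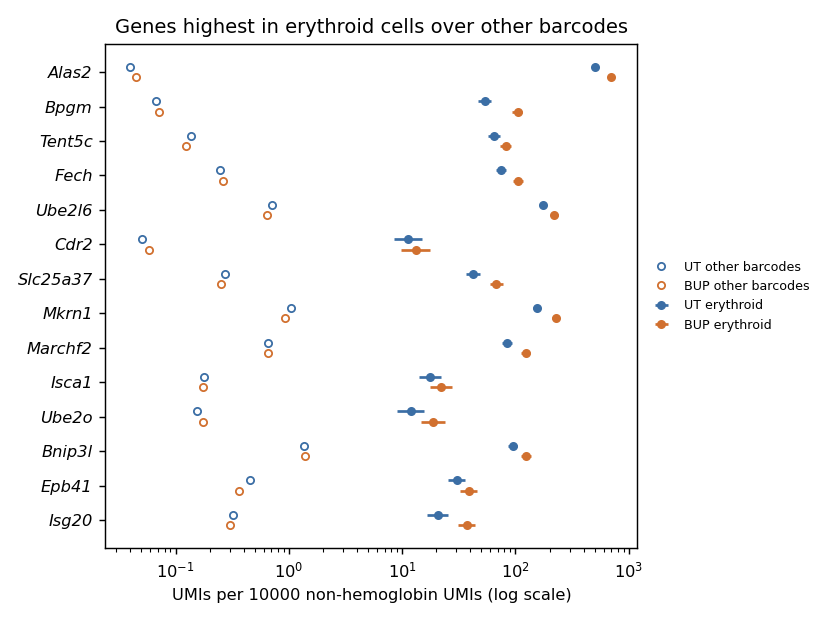
Levels of 14 genes with the highest ratios of erythroid cells over other barcodes, per 10000 non-hemoglobin UMIs on a log scale, in UT and BUP. Filled points are erythroid cells with 95% counting intervals, open points are other barcodes of the same library. Alas2, at the top, was 501 per 10000 in UT and 701 in BUP members.

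Alas2 stood at 501 per 10000 in UT members and 701 in BUP members, and was detected in 124 of 125 and in all 115 cells. In the other barcodes 1.86% and 2.49% had an Alas2 UMI, and the members held 87.7% and 86.4% of all Alas2 UMIs of their library. Fech, which inserts iron into protoporphyrin in the last step of heme synthesis, was 74.7 per 10000 in UT and 106 in BUP, in 84.8% and 82.6% of cells. Urod, an enzyme between them, was sparse, with 7 and 11 UMIs. Heme synthesis as a list of 8 enzymes summed to 581 and 814 per 10000 in members, against 1.92 and 1.91 in other barcodes.

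Iron handling followed the same pattern of a few plentiful transcripts. Slc25a37, the mitochondrial iron importer mitoferrin, was 42.4 per 10000 in UT and 68.0 in BUP, and Slc25a39, a mitochondrial glutathione carrier, 84.1 and 124. Ftl1, the ferritin light chain that stores iron, was 234 and 373 per 10000 and reached 4.82-fold and 9.03-fold the level of other barcodes. Fth1, the ferritin heavy chain, was 109 and 146, close to other barcodes at 0.953-fold and 1.15-fold. Tfrc, the transferrin receptor through which erythroblasts take up iron, had 3 UMIs in each library, and Tfr2 had 0. A count of 0 allows up to 0.652 per 10000 in UT and 0.826 in BUP.

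Genes of late maturation and organelle clearance were among the most widely detected. Ube2l6, a ubiquitin-conjugating enzyme, was 175 per 10000 in UT and 220 in BUP and was found in 96.0% and 98.3% of cells. Bnip3l, the receptor that marks mitochondria for removal in reticulocytes, was 94.3 and 124 per 10000, and Ube2o, an enzyme that tags surplus proteins of the reticulocyte, 12.0 and 18.7. The ubiquitin ligase gene Mkrn1 was 154 and 227 per 10000, Marchf2 85.0 and 124, and the poly(A) polymerase gene Tent5c 65.0 and 81.7. Of the 24 listed genes 8 reached 100 UMIs, a limit they passed by their level in the members, and all 8 were at least 4-fold over other barcodes in both libraries, beside 49.1% of all 110 genes.

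Membrane genes were less even. Epb41, which ties spectrin to actin under the membrane, was 30.2 per 10000 in UT and 38.5 in BUP, in 54.4% and 57.4% of cells. Slc4a1, the anion exchanger of the red cell, had 34 UMIs in UT members and 30 in BUP members, against 1 and 2 in all other barcodes. Kel, a blood group protein, had 5 and 10, against 1 and 4. Bpgm, which makes the bisphosphoglycerate that lowers the oxygen affinity of hemoglobin, was 53.5 per 10000 in UT and 104 in BUP, and was found in 52.0% and 62.6% of cells. Glycolytic enzymes that most cells share lay below the other barcodes, with Gapdh at 0.733-fold and 0.211-fold, Pkm at 0.475-fold and 0.209-fold and Ldha at 0.392-fold and 0.0740-fold.

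Few UMIs of the erythroid regulators were found, and the depth of the members limits what a count of 0 or 1 can show. Gata1 and Klf1, the main erythroid transcription factors, had 1 UMI each in UT members and 0 in BUP members. Tal1, Kit, Gata2, Myb and Epor, which mark progenitors and early erythroblasts, had 0 in both. E2f2, a cell cycle factor of late erythroblasts, had 15 UMIs in each library and Lmo2, a partner of Gata1, 14 and 11. The progenitor list of 10 genes as a whole had 21 UMIs in UT members and 3 in BUP members, log2 -2.47 (-4.86 to -0.72). The UMIs in UT were 6 of Runx1, 6 of Fli1, 4 of Spi1, 4 of Cd34 and 1 of Myc, genes that other blood or stromal cells also express. Together the 16 listed transcription factors summed to 10.4 per 10000 in UT and 10.7 in BUP, against 5.16 and 4.78 in other barcodes.

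Few members reached the limit set for cell cycle RNA, which depends on depth. With at least 2 UMIs of the S phase and G2 and M phase lists as the limit, 10 of 125 UT members (8.0%, 3.90 to 14.2%) and 17 of 115 BUP members (14.8%, 8.85 to 22.6%) qualified, against 70.3% and 74.1% of the deeper other barcodes. Each member was then thinned to 100 non-hemoglobin UMIs, which left out 5 BUP members, and 2 of 125 (1.60%) and 5 of 110 (4.55%) qualified. Ube2c, a mitotic ubiquitin enzyme that late erythroid cells also express, gave 22 of the UMIs in UT and 48 in BUP. Without it, 0 of 125 and 1 of 110 thinned members were left. Summed over members, the S phase list had 27 UMIs in UT and 7 in BUP, log2 -1.61 (-3.05 to -0.37), the replication histones 66 and 24, log2 -1.12 (-1.86 to -0.43), and the G2 and M phase list 62 and 73, log2 0.58 (0.07 to 1.09). Ube2c gave 22 and 48 of these G2 and M phase UMIs, so the higher sum in BUP rested on it. Per 10000 non-hemoglobin UMIs, the S phase list was at 5.87 in UT and 1.93 in BUP members, against 8.25 and 7.78 in other barcodes. The replication histones were at 14.3 and 6.60, against 4.66 and 4.49. The G2 and M phase list was at 13.5 and 20.1, against 8.875 and 7.28.

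The members were not uniform, and one set of genes was concentrated in a minority of them. Slc4a1 was detected in 11 of 125 UT members (8.8%, 4.48 to 15.2%) and in 21 of 115 BUP members (18.3%, 11.7 to 26.6%). These cells were chosen after values of the series had been seen, and they were deeper than the rest, with medians of 475 and 421 non-hemoglobin UMIs against 279 and 214, so depth is part of how they were picked. They held 13.2% of the non-hemoglobin UMIs of UT members and 35.3% of those of BUP members. Of Car2, the carbonic anhydrase of red cells, they held 27 of 38 UMIs in UT (71.1%) and 58 of 89 in BUP (65.2%). Trim10, an erythroid RING finger protein, had 10 of 11 and 21 of 31 UMIs in them, and Xpo7, a nuclear export factor of late erythroblasts, 18 of 25 and 17 of 18.

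The antioxidant enzyme genes Gpx1 and Prdx2 were also higher in these cells. Gpx1, glutathione peroxidase, was 278 per 10000 in the Slc4a1 cells of UT and 36.3 in the rest, a log2 difference of 2.94 (2.61 to 3.27), and 204 and 80.8 in BUP, a log2 difference of 1.33 (1.06 to 1.61). Prdx2, peroxiredoxin, was 109 and 17.0 in UT and 49.2 and 32.7 in BUP. Cat, catalase, was 21.4 and 3.25 in UT, a log2 difference of 2.72 (1.49 to 3.95). In BUP its log2 difference was 0.65 (-0.59 to 1.87), and 1.26 (0.02 to 2.48) without members of over 1000 non-hemoglobin UMIs. Alas2 was lower in these cells than in the rest, 430 against 512 per 10000 in UT and 521 against 799 in BUP, and so was Ftl1, 198 against 240 and 222 against 456. Their median hemoglobin content was 6811 against 6943 per 10000 UMIs in UT and 7615 against 7969 in BUP. Without the 4 members of over 1000 non-hemoglobin UMIs, Car2 stayed at 39.5 against 2.85 per 10000 in UT and 68.8 against 13.2 in BUP. For Alas2 the log2 difference without them was -0.04 (-0.24 to 0.15) in UT and -0.05 (-0.18 to 0.08) in BUP. Leaving them out took the Slc4a1 cells from 11 to 10 in UT and from 21 to 20 in BUP. The lower Alas2 level therefore rested on the deep cells among the Slc4a1 cells. Once the 4 deep members were left out, the Slc4a1 cells of UT held 4 of 9 Xpo7 UMIs. The log2 difference of Ftl1 was then -0.14 (-0.44 to 0.14) in UT and -0.51 (-0.71 to -0.31) in BUP.

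**Figure D4:**
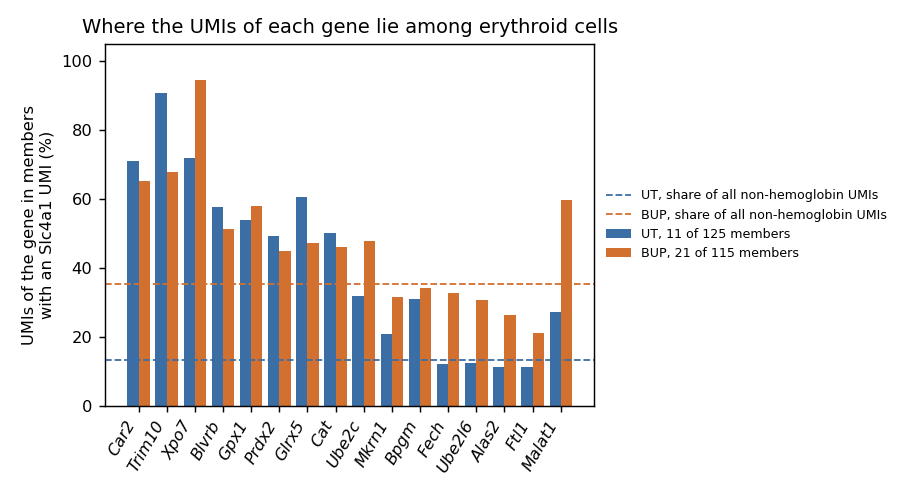
Percent of each gene's UMIs found in the erythroid cells that had an Slc4a1 UMI, 11 of 125 in UT and 21 of 115 in BUP. Dashed lines give the percent of all non-hemoglobin UMIs in those cells, 13.2% and 35.3%. Car2, Trim10 and Xpo7 lie far above the lines and Alas2 and Ftl1 below.

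Between BUP and UT, 5 of the 110 genes (4.55%) were at least 2-fold higher in BUP members and 11 (10.0%) at least 2-fold lower. The 5 were Car2 with a log2 ratio of 1.57, Sec61g, a subunit of the protein channel of the endoplasmic reticulum, with 1.44 (0.98 to 1.91), Map1lc3b, an autophagosome protein, with 1.24 (0.81 to 1.69), the ribosomal protein gene Rpl41 with 1.18 (0.90 to 1.47), and Stmp1 with 1.05 (0.53 to 1.59). The median log2 ratio of all 110 was 0.38, so most genes were a little higher in BUP on this scale. Measured from that median, 2 genes were at least 2-fold higher and 23 at least 2-fold lower. Per 10000 of all UMIs, hemoglobin included, 1 was higher and 28 were lower. The split into higher and lower genes therefore depended on the scale. It also depended on 2 cells, since leaving out the 1 member of each library with over 10% mt UMIs gave 14 higher and 11 lower genes of 100 tested.

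The heme, iron and late maturation lists were higher in BUP members, each by less than 2-fold. Alas2 had a log2 ratio of BUP over UT of 0.48 (0.40 to 0.57), Fech 0.51 (0.29 to 0.72), Ube2l6 0.33 (0.19 to 0.47) and Slc25a37 0.68 (0.41 to 0.96). Bpgm was higher, at 0.96 (0.73 to 1.20), and Gpx1 at 0.86 (0.65 to 1.08), each short of 2-fold. Of the heme synthesis list, 0 of 2 genes that reached 100 UMIs passed 2-fold, and of late maturation 1 of 8, Map1lc3b. The summed lists had log2 ratios of 0.49 for heme synthesis, 0.47 for late maturation and 0.63 for heme and iron transport. The ratio was 0.59 for iron uptake and storage, 0.66 for oxidant defence and 0.42 for the membrane skeleton. Ferritin made up most of the iron uptake and storage list. Of its 1677 UMIs in UT and 1991 in BUP, Ftl1 gave 1077 and 1356 and Fth1 501 and 529. The intervals of heme synthesis (0.41 to 0.56), late maturation (0.39 to 0.55), heme and iron transport (0.49 to 0.78), iron uptake and storage (0.49 to 0.68) and oxidant defence (0.50 to 0.83) lay above the median of 0.38, and that of the membrane skeleton (0.13 to 0.72) held it. This depended on the setting for heme synthesis and late maturation. Neither exceeded the median of the same setting with hemoglobin at 1000, without members holding 3 or more UMIs of other lineages, or after thinning. In the other settings both did. Per 10000 of all UMIs, hemoglobin included, heme synthesis was at 0.04 and late maturation at 0.02.

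Car2 was the gene with the highest ratio. Its level was 8.26 per 10000 in UT and 24.5 in BUP, but the 5 cells with most Car2 held 68.4% of its UMIs in UT and 61.8% in BUP, and its share of cells with a UMI was 12.8% and 19.1%. Map1lc3b, by contrast, was detected in 32.0% of UT and 56.5% of BUP cells, and Rpl41 in 58.4% and 80.9%.

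**Figure D5:**
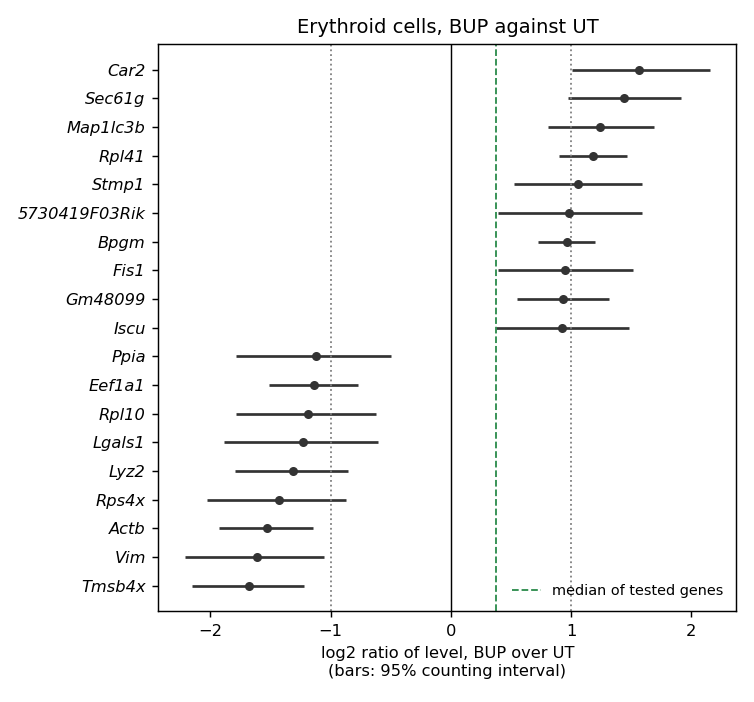
Log2 ratio of the level in BUP over UT erythroid cells for genes among the 10 highest and 10 lowest of 110, per 10000 non-hemoglobin UMIs. Bars are 95% counting intervals, dotted lines mark 2-fold and the green dashed line the median of the 110 genes, 0.38. Actb, Vim and Tmsb4x lie below -1.5.

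The genes that were lower in BUP members were of a kind that white cells and tumor cells make in quantity. Tmsb4x, which binds actin monomers, was 43.9 per 10000 in UT and 13.8 in BUP, a log2 ratio of -1.67 (-2.15 to -1.22). Vim, vimentin, was 27.8 and 9.08, and Actb, beta actin, 56.3 and 19.5. Lyz2, the lysozyme of macrophages and neutrophils, was 35.6 and 14.3 (-1.32) and Lgals1, galectin 1, 18.7 and 7.98 (-1.23). Rps4x, Rpl10, Eef1a1, Ppia and Actg1 were also among the 11, between -1.43 and -1.05. Tmsb4x, Vim, Actb, Lyz2, Lgals1 and Actg1 belong to a list of 7 such genes, drawn up after their values were seen, whose sum was 223 per 10000 in UT members and 85.9 in BUP members, against 409 and 327 in other barcodes. The 102 ribosomal protein genes summed to 1107 and 808 per 10000 in members, a log2 ratio of -0.45 (-0.52 to -0.39), while in other barcodes they were 1481 and 1950.

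RNA of macrophages was also lower in BUP members. At least 3 UMIs of the macrophage, neutrophil, T and NK or fibroblast and tumor lists were held by 25 of 125 UT members (20%) and by 1 of 115 BUP members (0.870%). The 8 macrophage markers summed to 28.5 per 10000 in UT and 9.08 in BUP members, log2 -1.65 (-2.25 to -1.09), and to 58.7 and 26.6 in other barcodes. Among them C1qa had 38 and 7 UMIs and Apoe 32 and 3. The 9 T and NK markers had 26 and 5 UMIs, of which 14 lay in 1 UT member with 6 Ptprc UMIs. The neutrophil markers, with 15 and 7 UMIs, had a log2 ratio of -0.76 (-2.29 to 0.62), and the fibroblast and tumor markers, with 16 and 9, one of -0.49 (-1.85 to 0.78), so neither difference exceeded counting error. B cell and endothelial markers had 0 UMIs in members of both libraries. The part of these other cells in the lower genes was not tested. Without the 26 cells of mixed lineage, Actb was at -1.55 and Tmsb4x, Vim and Lyz2 also stayed at least 2-fold lower in BUP. With the hemoglobin limit at 1000, which adds 3 UT barcodes and 1 BUP barcode of 11065 non-hemoglobin UMIs, Vim was at -0.02, Lgals1 at -0.48, Rps4x at -0.04 and Eef1a1 at -0.21, and Tmsb4x, Actb and Lyz2 kept to -1.69, -1.56 and -1.72.

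Ordered by hemoglobin content, the value that chose the cells, and split into 3 ranges of 80 cells, the rest of the RNA differed along the order. These values are a description: other RNA in a barcode lowers the hemoglobin share and the erythroid share of the rest alike, and the 4 deepest members lie in the lowest range. From the lowest range (2127 to 7001 hemoglobin UMIs per 10000) through the middle to the highest (7756 to 8869), heme synthesis genes summed to 430, 814 and 899 per 10000 non-hemoglobin UMIs in UT and to 375, 787 and 1086 in BUP. Late maturation genes summed to 400, 647 and 851 in UT and to 385, 715 and 881 in BUP. Ribosomal protein genes were at 1135, 1084 and 972 in UT and at 682, 801 and 885 in BUP, so their order was opposite in the libraries. The mt genes were at 330, 369 and 101 in UT and at 1001, 427 and 157 in BUP, where the lowest range of BUP holds the 1 cell of 5575 UMIs with 13.4% mt. The ranges hold different shares of the libraries, 67 UT and 13 BUP cells in the lowest and 12 and 68 in the highest, and are not cell types. The alpha share was 51.3%, 51.5% and 52.4% in UT and 56.4%, 57.6% and 57.5% in BUP, so it was higher in BUP in each range.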

How the data were processed

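Single-cell 5' RNA of 2 libraries was used, UT and BUP, 1 per condition. The authors aligned reads to GRCm39 with Cell Ranger (8.0.1 per the labels) and deposited UMI counts per gene and barcode, which are raw counts without normalization. The libraries held 83228442 and 89918925 UMIs in 7556 and 7221 barcodes. Barcodes under 20% mt UMIs were kept, and members were chosen by adult hemoglobin at 2000 or more per 10000 UMIs. No doublet caller was run, and members with 3 or more UMIs of other lineages were counted and left out as an alternative. Counts were summed over members per library and divided by their non-hemoglobin UMIs, because hemoglobin takes most UMIs. Intervals are exact (Poisson, Clopper-Pearson, or conditional for ratios) at 95%, cover counting error only, and were made with scipy 1.17.1, numpy 2.4.6 and pandas 2.3.3 in Python 3.11.15. Genes named were those of 28 lists by role, the 10 highest and 10 lowest BUP over UT ratios and the 15 highest ratios over other barcodes, among genes with 100 or more UMIs over members. Shares below a limit of 3 counts are given as that limit. T cells and C1q macrophages were barcodes with 3 or more UMIs of the Cd3 or C1q genes and 0 of the other set. Sums were checked on simulated counts. The members and lists were chosen with earlier results of these data known. Positions are from GENCODE M39 and promoters from RefSeq. Ahsp was not analysed here, and a few genes that these rules name are not reported here.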

Additional observations from a re-analysis of the deposited data

How the results depend on the processing

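No paired analysis was possible because each condition is 1 library. The share of erythroid cells was 0.971% in UT and 1.01% in BUP over barcodes of at least 1000 UMIs, and 6.15% and 3.81% over barcodes without a Ptprc UMI. The numbers of genes at least 2-fold higher and lower in BUP, 5 and 11, changed with most settings. The number of genes tested, 110 in the main setting, changed as well. They were 4 and 5 of 144 genes with hemoglobin at 1000, 8 and 9 of 95 at 4000, and 14 and 11 of 100 under 10% mt UMIs. Without members of over 1000 non-hemoglobin UMIs they were 9 and 10 of 96. Of 110 genes they were 1 and 28 per 10000 of all UMIs, 2 and 23 relative to the median ratio, and 11 and 7 with each cell weighted equally. After thinning they were 3 and 0 of 28 genes. With at least 200 UMIs they were 1 and 4 of 55, and with at least 20 they were 39 and 103 of 436. The log2 ratios of heme synthesis and late maturation were 0.17 and 0.17 with hemoglobin at 1000, 0.65 and 0.62 under 10% mt UMIs, 0.35 and 0.30 without members of mixed lineage, 0.041 and 0.021 per 10000 of all UMIs, and 0.11 and 0.091 relative to the median ratio. The median ratio of the tested genes was 0.24 with hemoglobin at 1000, 0.52 under 10% mt UMIs and 0.35 without members of mixed lineage. Per 10000 of all UMIs it was -0.07. After thinning, the 2 lists were at 0.48 and 0.48 beside a median of 0.57. The macrophage list ran from -2.10 to -1.18. Cell cycle shares were 8.0% in UT and 14.8% in BUP without thinning, and 1.60% and 4.55% after it. Without Ube2c they were 4.8% in UT and 7.83% in BUP unthinned, and 0% and 0.909% after thinning. The alpha share was 51.0% in UT barcodes that are no members. Rpl10 turned to 0.030 with hemoglobin at 1000, a setting that adds to BUP 1 barcode of 11065 non-hemoglobin UMIs. The settings on deep members, Ube2c and the alpha share were chosen after seeing the data. The median of 301 and 232 non-hemoglobin UMIs per cell limits what a single member can show.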
